A study of Mus musculus and Rattus norvegicus with 36 samples.

Results

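Microglial and myeloid transcripts were followed through RNA-seq libraries made from oligodendrocyte precursor cells (OPCs), the glial progenitors that give rise to myelinating oligodendrocytes. The set holds 31 genes, taken by symbol, and all 31 had a row in the table of acutely isolated mouse OPCs, which lists 18464 genes. Microglia are the resident macrophages of the brain. They depend on the receptor Csf1r, survey tissue with the purine receptor P2ry12 and the chemokine receptor Cx3cr1, tag synapses and debris with complement C1q, signal through Tyrobp and Fcer1g, and digest what they engulf with lysosomal proteins such as cathepsin S. OPCs belong to the neural lineage, and most of these genes are known as myeloid; which cells the transcripts came from was not tested. All values are of bulk samples, in which fewer cells of a type and less RNA per cell cannot be told apart.

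The study asked whether BAF155, the chromatin remodelling subunit encoded by Smarcc1, shapes how OPCs of different brain regions respond to neuronal input. Its 36 libraries fall into 12 groups of 3. Of the acute groups, the knockout libraries came from Pdgfralpha-CreER;Baf155-flox/flox mice, in which an inducible Cre recombinase is driven from the Pdgfra gene and so acts in cells of the OPC lineage, and the control libraries from Baf155-flox/flox littermates without Cre. Each genotype was labelled as mPFC (medial prefrontal cortex) or hippocampus, although the isolation protocol speaks of cortex. Brains were perfused and freed of meninges, the tissue was digested with papain, and OPCs were caught on an antibody-coated plate (immunopanning) and lysed there. The culture groups came from wild type mouse OPCs of the mPFC and of the hippocampus, untreated or given 200 uM GABA, and from rat cortex OPCs in a GABA set and a glutamate set at the same dose, each after 2 days in proliferation medium and 24 h of treatment. Ages, the tamoxifen schedule and whether libraries came from separate animals or cultures are not given in the sources used here, so p-values measure the spread between these samples only.

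Libraries held 14826255 to 22128687 reads as recovered from the scaled values, which are read counts that the authors scaled by 1 factor per library. In part of the libraries the scaling lay too close to 1 for the recovered reads to be accepted for a count test. The comparison of replicate counts below rests on these recovered reads. Smarcc1, the targeted gene, stood at 3814.1 to 3915 in the libraries labelled control mPFC against 2368.4 to 2648.6 in the knockout, and at 4419.1 to 4513.8 in those labelled control hippocampus against 1510.2 to 1631.1. The region labels of the acute groups went against each other. Of 18 forebrain regional transcription factors tested, 8 passed between the regions in both genotypes, all 8 with opposite signs. Of these, 7 had the sign of the untreated cultures in the knockout libraries against 1 in the control libraries. The mPFC and hippocampal cultures were scaled separately, so the culture sign compares means across separate scalings and was not tested. Dlx1, for example, averaged 29.2 in the libraries labelled control mPFC and 180.0 in those labelled control hippocampus, but 155.8 and 31.1 in the knockout, and 304.4 and 48.7 in the cultures. Control groups are therefore called by their label, and the knockout results are followed by the values with the control region labels exchanged. Libraries 3 of the knockout mPFC and 3 of the control hippocampus stood apart from their replicates: the chi-square per gene between replicate counts was 13.4 and 16.0 (knockout mPFC) and 10.1 and 8.37 (control hippocampus) in pairs with these libraries, against 2.48 and 1.67 in the pairs without them. On this scale 1 is counting noise alone. Several groups lay near it, such as untreated mouse mPFC cultures (1.217 to 1.485) and mouse hippocampal cultures with GABA (1.317 to 1.441). Mouse mPFC cultures with GABA were at 2.305 to 5.703. Small p-values therefore need not measure a spread between animals or cultures. Y-linked genes were higher in the knockout libraries of both regions: Ddx3y averaged 98.2 (control mPFC), 406.8 (knockout mPFC), 189.5 (control hippocampus) and 450.1 (knockout hippocampus), and the part of sex in the results was not tested.

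Promoters are shown for 6 members as examples of both directions of change in the acute knockout. Laptm5, Ctss, C1qb and Trem2 fell in the hippocampal comparison, while Siglech and P2ry12 rose in both regions. RefSeq windows of GRCm38.p6, running from 250 bases before to 50 after the annotated start, were found for 22 of the 31 members. Capitals mark GAGGAA, the core bound by PU.1, a myeloid master regulator encoded by the member gene Spi1; where the match lies on the other strand it reads TTCCTC. The windows lie at chr4:130913066-130913365 on the plus strand (Laptm5), chr3:95526536-95526835 on the plus strand (Ctss), chr4:136886151-136886450 on the minus strand (C1qb), chr17:48346151-48346450 on the plus strand (Trem2), chr7:55767934-55768233 on the plus strand (Siglech) and chr3:59262936-59263235 on the minus strand (P2ry12), each printed 5′ to 3′ on its gene's strand.
Laptm5: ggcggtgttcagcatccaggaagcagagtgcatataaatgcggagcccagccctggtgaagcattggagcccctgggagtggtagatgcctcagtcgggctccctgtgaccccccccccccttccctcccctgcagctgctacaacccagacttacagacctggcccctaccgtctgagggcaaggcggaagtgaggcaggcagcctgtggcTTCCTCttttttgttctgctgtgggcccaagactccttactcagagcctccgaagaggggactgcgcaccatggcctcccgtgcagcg
Ctss: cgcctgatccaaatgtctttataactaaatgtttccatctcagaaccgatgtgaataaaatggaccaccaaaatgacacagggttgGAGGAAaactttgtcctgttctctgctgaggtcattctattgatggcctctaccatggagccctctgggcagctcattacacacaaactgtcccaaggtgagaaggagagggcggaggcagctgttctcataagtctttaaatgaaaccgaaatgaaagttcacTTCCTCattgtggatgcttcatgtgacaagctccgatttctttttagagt
C1qb: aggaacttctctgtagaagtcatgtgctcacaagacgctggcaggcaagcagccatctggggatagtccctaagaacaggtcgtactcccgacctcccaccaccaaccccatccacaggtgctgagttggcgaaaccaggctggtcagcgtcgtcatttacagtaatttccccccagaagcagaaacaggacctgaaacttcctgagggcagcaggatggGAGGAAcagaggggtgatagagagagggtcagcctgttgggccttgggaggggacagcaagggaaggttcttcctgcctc
Trem2: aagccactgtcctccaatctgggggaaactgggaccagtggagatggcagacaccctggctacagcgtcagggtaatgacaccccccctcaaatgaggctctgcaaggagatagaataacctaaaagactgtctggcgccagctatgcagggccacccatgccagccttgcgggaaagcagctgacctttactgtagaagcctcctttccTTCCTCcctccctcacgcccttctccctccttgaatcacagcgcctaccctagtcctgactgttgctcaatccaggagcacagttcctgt
Siglech: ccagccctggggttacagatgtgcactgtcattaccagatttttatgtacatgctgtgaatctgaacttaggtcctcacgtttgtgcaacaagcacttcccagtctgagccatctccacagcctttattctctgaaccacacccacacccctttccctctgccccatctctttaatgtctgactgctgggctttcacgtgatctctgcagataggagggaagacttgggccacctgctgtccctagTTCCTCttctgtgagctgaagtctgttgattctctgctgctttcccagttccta
P2ry12: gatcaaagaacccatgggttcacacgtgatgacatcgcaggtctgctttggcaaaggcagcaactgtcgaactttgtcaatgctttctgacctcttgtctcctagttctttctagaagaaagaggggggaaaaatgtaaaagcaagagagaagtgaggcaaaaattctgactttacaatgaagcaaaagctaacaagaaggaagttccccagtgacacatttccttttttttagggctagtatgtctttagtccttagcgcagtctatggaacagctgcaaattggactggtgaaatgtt

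GAGGAA on either strand occurred in 15 of 26 promoter windows of the members (57.7%, 14 of 22 genes) and in 28.3% of all 32851 windows of that length. The windows of Cx3cr1, Fcer1g, Irf8, Lgals3, Ly86, Lyz2, Mpeg1 and P2ry12 did not hold these letters. The shown members that fell all held them, but strongly falling members did not all do so. Lyz2, Lgals3, Mpeg1 and Fcer1g lacked them and had log2 fold changes of −2.53, −2.26, −1.82 and −1.79 in the hippocampal knockout. The composite PU.1-IRF motif occurred in 1 of the 26 windows, that of Cd68, and in 2.7% of all windows. Of the 2 members that rose in both regions, Siglech had the letters in its window and P2ry12 did not. A match is a string of letters and was not tested as a binding site.

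Levels per kilobase of exon, which can be compared between genes, were led by Lyz2, the lysozyme of macrophages, at 1295.6 normalised reads per kb in the libraries labelled control hippocampus. Ctss (cathepsin S) followed at 231.0, Cd68 (a lysosomal membrane glycoprotein) at 170.9 and C1qa at 149.1, whereas P2ry12 stood at 4.0, Tmem119 at 2.2 and Siglech at 1.3. Other members lay between these, among them Csf1r at 13.3, Trem2 at 12.2 and Cx3cr1 at 6.5. The defining microglial markers were all detected, with mean normalised read counts in the same libraries of 155.1 for C1qa, 76.8 for Csf1r, 29.3 for Cx3cr1, 10.1 for P2ry12, 5 for Tmem119 and 4.3 for Aif1. Together the 31 members made up 0.00721% to 0.00785% of the scaled reads in the knockout hippocampus, where their share was lowest among the acute groups, against 1.1% to 1.12% for 12 OPC markers there.

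**Figure D1:**
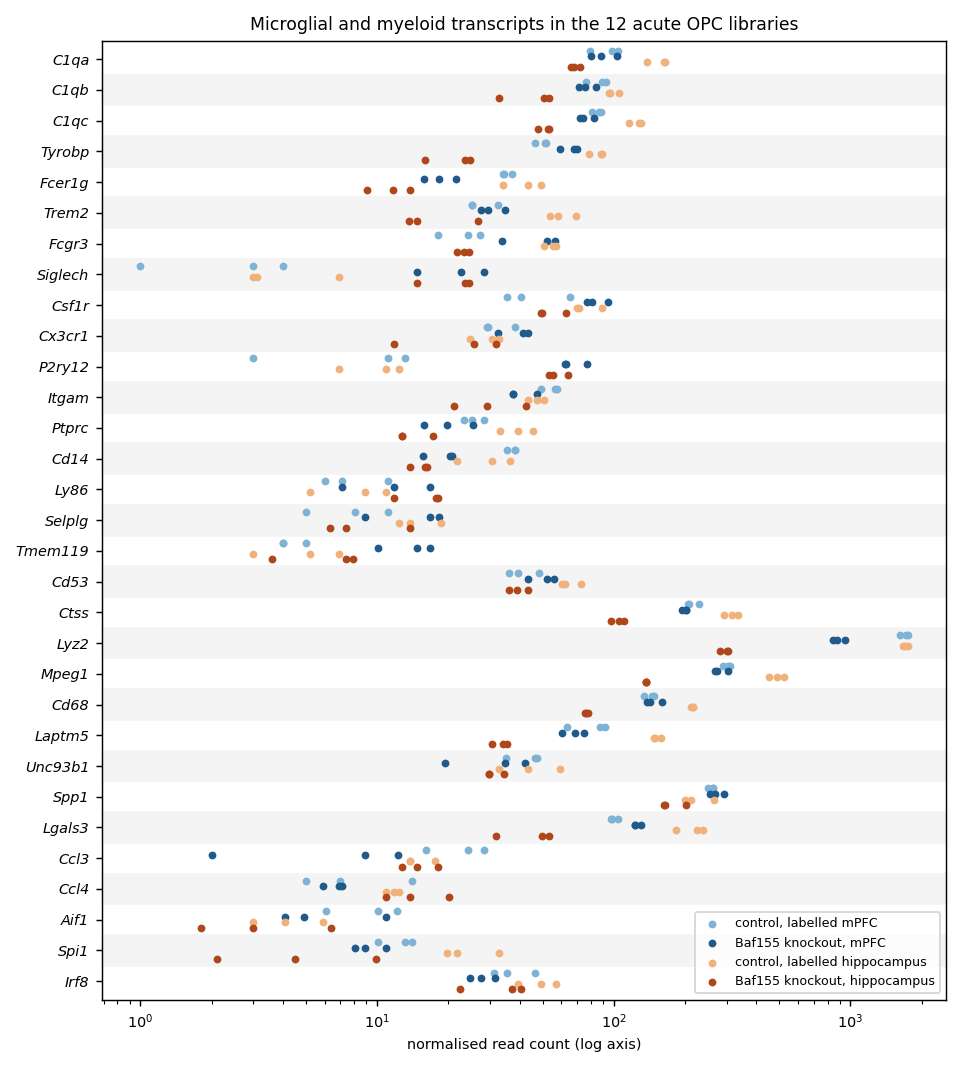
Normalised read count (log axis) of each of the 31 members in the 12 acute OPC libraries; every point is 1 library and colours mark the 4 groups. Siglech and P2ry12 lie to the right in both knockout groups, Lyz2 to the left, and most lysosomal and complement genes are lowest in the knockout hippocampus.

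In the hippocampus the knockout libraries held far less of most members: 19 of 31 fell, 2 rose and 10 did not pass. Over all 13985 genes tested, 42.6% were called, 21% lower and 21.7% higher, and the members' median log2 fold change was −0.88 against −0.002 over all genes. The summed level of the members was 4333 to 4559 in the control libraries and 1453 to 1572 in the knockout libraries. Without Lyz2 the sums were 2638 to 2814 and 1166 to 1272, so the gap did not rest on the most abundant member alone. Test results are from limma on log2(value + 1), with Benjamini-Hochberg adjustment over all tested genes and a threshold of 0.05, and errors of fold changes are standard errors with n = 3 per group.

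Complement C1q is a hexamer built from the products of C1qa, C1qb and C1qc, which lie side by side on chromosome 4, and all 3 fell in the hippocampal knockout. C1qa read 163.9, 162.8 and 138.6 in the control libraries and 67.9, 65.7 and 72.1 in the knockout libraries. C1qb read 104.7, 95.7 and 96.2 against 53.4, 50.9 and 32.6. C1qc read 130.3, 116.4 and 127.2 against 52.5, 47.7 and 53.3. For each subunit the lowest control library was well above the highest knockout library. The log2 fold changes were −1.16 ± 0.13 for C1qa (adjusted p = 6.77e-06), −1.13 ± 0.17 for C1qb (8.44e-05) and −1.27 ± 0.11 for C1qc (5.37e-07).

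Both signalling adaptors among the members, and the receptors Trem2 and Fcgr3, fell as well. Tyrobp (DAP12), the transmembrane adaptor of Trem2, read 87.9, 88.8 and 78.6 in the control hippocampus and 23.5, 15.9 and 24.7 in the knockout. Fcer1g, the adaptor of activating Fc receptors, read 49.4, 43.4 and 34.1 against 9.1, 11.7 and 13.8. Trem2, a lipid-sensing receptor of microglia, read 69.1, 58.2 and 53.8 against 13.6, 14.8 and 26.7. No knockout library reached the level of a control library in any of these genes. Their log2 fold changes were −1.97 ± 0.17 for Tyrobp (limma adjusted p = 3.89e-07), −1.79 ± 0.22 for Fcer1g (1.42e-05) and −1.72 ± 0.23 for Trem2 (4.32e-05). Fcgr3, an activating Fc receptor for IgG whose reads may be shared with related Fc receptor genes, averaged 54.4 ± 3.4 (SD) in control and 23.2 ± 1.4 in knockout libraries (−1.20 ± 0.21, adjusted p = 0.000381).

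Lysosomal and phagocytic genes showed the smallest p-values. Lyz2 read 1744.9, 1695.6 and 1674.5 in the control hippocampus and 303.2, 282.0 and 300.3 in the knockout, a log2 fold change of −2.53 ± 0.06 (limma adjusted p = 2.74e-13); the near-identical gene Lyz1 may share its reads. Mpeg1, which encodes the pore-forming protein perforin-2 of macrophages, read 487.8, 450.8 and 522.3 against 136.7, 136.8 and 137.3 (−1.82 ± 0.08, adjusted p = 2.45e-10). The knockout libraries of both genes were tightly grouped and far below every control library. Ctss read 333.8, 293.0 and 314.4 against 105.0, 97.5 and 110.6 (−1.58 ± 0.08, adjusted p = 3.15e-09). Cd68 read 216.3, 217.0 and 211.0 against 77.8, 75.3 and 76.1 (−1.48 ± 0.09, adjusted p = 1.04e-08). Laptm5, a lysosomal membrane protein of blood-lineage cells, read 158.0, 148.0 and 150.0 against 35.3, 33.9 and 30.6 (−2.16 ± 0.15, adjusted p = 3.68e-08). In all 5 genes the groups were separate. Lyz2 made up 38.3% to 39.1% of the members' summed level in the control hippocampus and 19.1% to 20.6% in the knockout, so the mix of members was also different. Unc93b1, which carries nucleic-acid-sensing Toll-like receptors to endosomes, was at 45.1 ± 13.4 against 31.2 ± 2.7 and did not pass (−0.48 ± 0.27, adjusted p = 0.165).

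Lgals3 (galectin-3) can be secreted. It read 238.0, 224.9 and 183.1 in the control hippocampus against 31.7, 49.8 and 53.3 in the knockout (−2.26 ± 0.16, limma adjusted p = 7.29e-08), with no overlap; other cell types make galectin-3 too. Spp1 (osteopontin), which is not restricted to microglia either, passed at −0.35 ± 0.11 (adjusted p = 0.0185), but its groups overlapped and the call was lost without control library 3 or without knockout library 4 or 5. The chemokine genes Ccl3 and Ccl4 stood at 15.1 ± 2.2 and 11.7 ± 0.8 in control libraries and 15.2 ± 2.7 and 14.9 ± 4.7 in knockout libraries, with adjusted p-values of 0.99 and 0.542. Neither chemokine gene passed.

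Among the remaining surface proteins and transcription factors, 5 fell. Spi1 went from 24.6 ± 6.9 to 5.5 ± 4.0 (−2.13 ± 0.40, limma adjusted p = 0.00063), Ptprc, the pan-leukocyte phosphatase CD45, from 39.3 ± 6.2 to 14.3 ± 2.6 (−1.40 ± 0.22, adjusted p = 0.000182), and the endotoxin co-receptor gene Cd14 from 29.6 ± 7.5 to 15.3 ± 1.3 (−0.88 ± 0.22, adjusted p = 0.00465). Cd53, a leukocyte tetraspanin gene, fell by 0.70 on the log2 scale (adjusted p = 0.00265). Itgam (CD11b) fell by 0.65 (adjusted p = 0.0228), a call lost without control library 1 or 3 or without knockout library 4 or 5. The other members include Csf1r, Cx3cr1 and Aif1, which did not pass. Csf1r stood at 76.8 ± 10.5 against 53.9 ± 7.5 (−0.50 ± 0.20, adjusted p = 0.0549), Cx3cr1 at 29.3 ± 4.0 against 23.1 ± 10.3 (adjusted p = 0.244) and the calcium-binding protein gene Aif1 (IBA1) at 4.3 ± 1.5 against 3.7 ± 2.4 (adjusted p = 0.696). Irf8, a myeloid transcription factor gene, Ly86, Selplg and Tmem119 did not pass either, with log2 fold changes from −0.70 to 0.89.

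P2ry12 and Siglech went the other way. P2ry12, the ADP receptor that steers microglial processes to injury, read 6.9, 10.9 and 12.4 in the control hippocampus and 55.2, 53.0 and 64.2 in the knockout (2.43 ± 0.37, limma adjusted p = 0.000118). Siglech, a sialic acid-binding receptor of mouse microglia that signals through Tyrobp, read 3.0, 6.9 and 3.1 against 23.5, 24.4 and 14.8 (2.09 ± 0.43, adjusted p = 0.00127). Every knockout library was above every control library in both genes, and in Siglech the values reached the filter of at least 10 in 3 libraries through the knockout libraries only.

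In the mPFC comparison 5 members rose, 4 fell and 22 of 31 did not pass; of the 5, Siglech and Tmem119 reached the filter through knockout libraries only. Over all genes tested, 47.4% were called, 24.1% higher and 23.2% lower, so the share of members called was below that of all genes, and their median log2 fold change was −0.10 against −0.02. Their summed level was 3490 to 3714 in the libraries labelled control mPFC and 2837 to 2893 in the knockout; without Lyz2 the ranges were 1869 to 1964 and 1906 to 2049. The lower sum was therefore carried by Lyz2, which made up 46.4% to 47.9% of it in control and 29.2% to 33.2% in knockout libraries.

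The members that rose in the mPFC encode surface proteins. P2ry12 read 11.1, 13.1 and 3.0 in the libraries labelled control mPFC and 62.9, 62.2 and 77.0 in the knockout (2.95 ± 0.37, limma adjusted p = 1.44e-05). Siglech read 1.0, 4.0 and 3.0 against 22.6, 14.8 and 28.4 (2.69 ± 0.43, adjusted p = 0.000122). Tmem119, a surface protein gene of resident microglia, read 5.0, 4.0 and 4.0 against 14.8, 16.8 and 10.1 (1.45 ± 0.40, adjusted p = 0.0082). These 3 genes had few reads in the control libraries, and each was higher in every knockout library. Csf1r read 65.4, 40.4 and 35.3 against 94.4, 81.0 and 77.0 (0.87 ± 0.20, adjusted p = 0.00234). Fcgr3 read 18.1, 24.2 and 27.2 against 52.1, 33.6 and 56.7 (0.99 ± 0.21, adjusted p = 0.00135). For these too the groups were separate, but neither was called with exchanged control labels.

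Members that fell in the mPFC comparison were Lyz2, Cd14, Fcer1g and Ccl3. Lyz2 read 1720.8, 1750.0 and 1618.6 against 875.4, 946.2 and 844.0 (−0.93 ± 0.06, limma adjusted p = 8.04e-09). Cd14 read 38.3, 38.4 and 35.3 against 15.7, 20.7 and 20.3 (−0.95 ± 0.22, adjusted p = 0.00223). Fcer1g read 34.2, 34.4 and 37.3 against 21.6, 15.8 and 18.2 (−0.90 ± 0.22, adjusted p = 0.00332). In all 3 the knockout libraries lay below the control libraries. Ccl3, which encodes the chemokine MIP-1α, read 28.2, 24.2 and 16.1 against 2.0, 8.9 and 12.2 (−1.68 ± 0.44, adjusted p = 0.00571), while its neighbour Ccl4 stood at 8.7 ± 4.8 against 6.6 ± 0.6 (adjusted p = 0.597). With exchanged control labels Ccl3 was not called (−1.13, adjusted p = 0.0534). The other adaptor and its receptor did not pass: Tyrobp read 51.4, 51.5 and 46.4 against 67.9, 59.3 and 69.9 (0.39 ± 0.17, adjusted p = 0.0651), and Trem2 was at 27.6 ± 4.1 against 30.5 ± 3.6 (adjusted p = 0.638). C1qa, C1qb and C1qc stood at 93.8 ± 12.7, 86.1 ± 8.5 and 85.4 ± 4.3 in control and 90.6 ± 11.8, 77.0 ± 6.6 and 76.0 ± 5.4 in knockout libraries, with adjusted p-values from 0.227 to 0.786.

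The difference between the knockout effects, hippocampus minus mPFC, passed for 17 members, all negative, against 24.4% of all genes (12.6% negative). Without knockout mPFC library 3, 17 members were negative and 1, Ccl3, positive, and 37.8% of all genes passed. Without control hippocampus library 3 these were 18 members, all negative, and 32.6%. Leaving out any other single library lowered the share of all genes to between 17.3% and 20.5%. The difference was largest for Lgals3 (−2.59 ± 0.23, limma adjusted p = 2.39e-06), Tyrobp (−2.36 ± 0.24, 7.52e-06), Fcgr3 (−2.18 ± 0.30, 0.000153) and Laptm5 (−1.92 ± 0.21, 1.62e-05). P2ry12 (−0.52 ± 0.52, adjusted p = 0.508) and Siglech (−0.60 ± 0.60, 0.499) did not pass this test. The difference was not particular to the members. Of 10 mural and fibroblast genes 6 were negative and 0 positive, with a median of −1.02 against −1.06 for the members. Of 6 oligodendrocyte genes these were 4 and 0, of 10 astrocyte genes 7 and 2, and of 10 neuronal genes 3 and 2. Of 12 OPC markers 1 was negative and 4 positive, and of 4 endothelial genes 0 and 1. The part of other cells was not tested. The control groups differed as well. Between them, 12 members were higher in the libraries labelled hippocampus and 0 were lower, against 12.2% and 11.5% of all genes, led by Mpeg1 (301.2 ± 10.3 in mPFC and 487.0 ± 35.8 in hippocampus, 0.69 ± 0.08, adjusted p = 2.84e-05) and Lgals3 (99.9 ± 3.5 and 215.3 ± 28.7, 1.09 ± 0.16, adjusted p = 0.000343). Lyz2 was level at 1696.5 ± 69.0 and 1705.0 ± 36.1. Between the knockout groups 13 members were lower in the hippocampus and 0 were higher, against 6.97% and 8.14% of all genes, led by Lyz2 (888.5 ± 52.3 and 295.2 ± 11.5, −1.59 ± 0.06, adjusted p = 6.61e-10). Without knockout mPFC library 3, 14 members were lower and 1, Ccl3, higher, and the share of all genes called went from 15.1% to 35.2%. Leaving out any other knockout library lowered this share to between 7.43% and 8.05%.

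With the control region labels exchanged, the mPFC knockout comparison called 17 members, 3 higher and 14 lower (38.8% of all genes were called, 20% higher and 18.8% lower), with a median of −0.55. The hippocampal one called 19, of which 2 were higher and 17 lower (48.1% of all genes, 24.5% higher and 23.6% lower), with a median of −0.61. The difference between the effects then passed for 5 members only, all negative (13.8% of all genes, 6.28% positive and 7.52% negative): Lyz2 (−1.58 ± 0.08), Tyrobp (−0.83 ± 0.24), Spp1 (−0.82 ± 0.15), Ctss (−0.38 ± 0.12) and Mpeg1 (−0.34 ± 0.11). In the hippocampus all 17 members that were lower under the exchange were also lower with the labels as given, and Fcgr3 (0.02) and Cd53 (−0.06) dropped out. In the mPFC Trem2 (−0.96), Lgals3 (−0.77) and Cd68 (−0.55) turned from a positive value to a call downwards, Fcgr3 (−0.23) lost its call upwards and turned negative, and Tyrobp (−0.37), Cd53 (−0.36) and Selplg (−0.07) turned negative without a call under either labelling. Across both regions and both labellings, P2ry12 was higher every time, as was Siglech, which reached the filter through knockout libraries only, and 3 were lower every time, Lyz2, Fcer1g and Cd14. Which labelling is right was not tested, and region and control group cannot be told apart here.

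**Figure D2:**
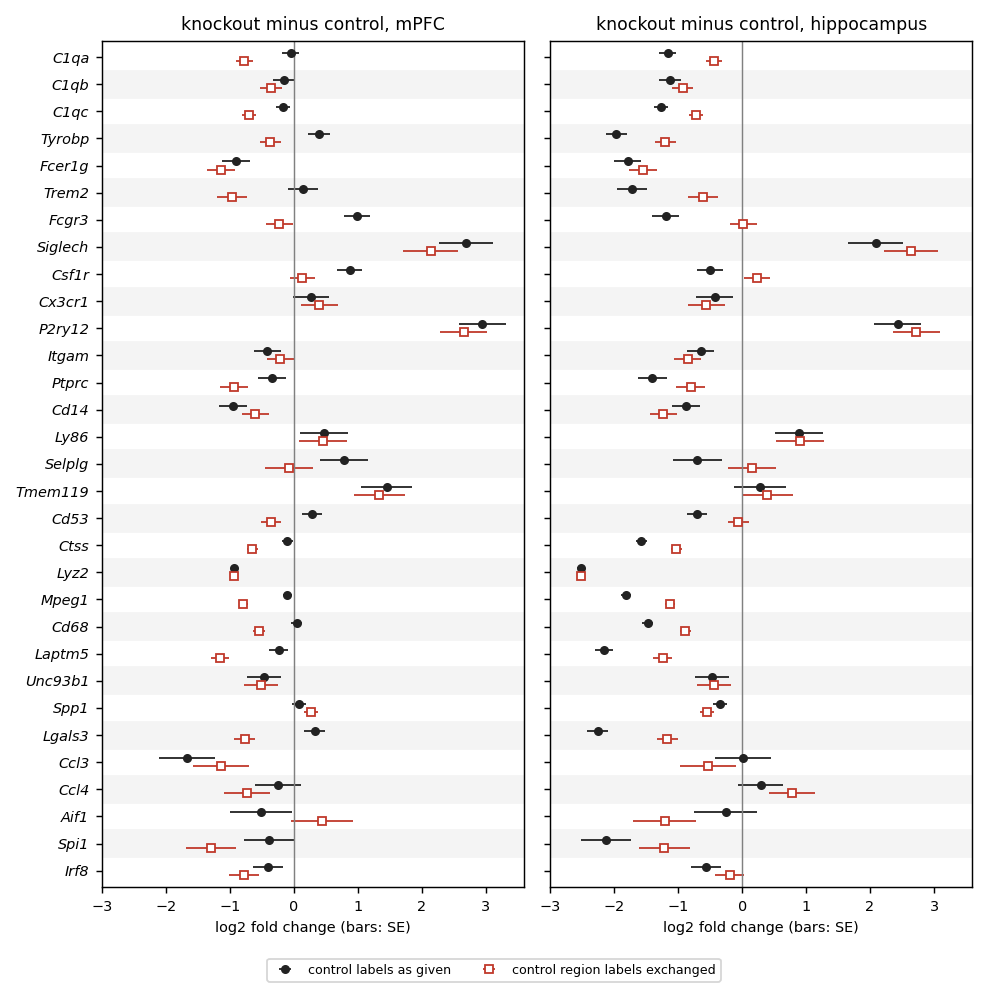
Log2 fold change, knockout minus control, of each member in the mPFC (left) and hippocampus (right); filled circles use the control region labels as given, open squares the exchanged labels, and bars are standard errors (3 libraries per group). P2ry12 and Siglech lie above 2 in all 4 comparisons; the C1q and lysosomal genes lie below 0 in the hippocampus under both labellings and, Lyz2 apart, within 0.5 of 0 in the mPFC with labels as given.

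Over all genes tested, 42.6% were called in the hippocampal knockout comparison and 47.4% in the mPFC one. Of 40 other microglial genes, 30 were tested in the hippocampus: 3 rose, 13 fell and 14 did not pass, with a median of −0.39. Among them Adgre1, the macrophage antigen F4/80, went from 78.6 ± 4.8 to 33.6 ± 4.8 (−1.21 ± 0.14, limma adjusted p = 8.36e-06), and Itgb2, the integrin partner of Itgam, from 56.6 ± 14.3 to 13.3 ± 4.3 (−2.03 ± 0.28, adjusted p = 4.56e-05). Olfml3, an extracellular protein gene that is not restricted to microglia, rose from 331.4 ± 37.4 to 549.5 ± 29.0 (0.73 ± 0.08, adjusted p = 6.82e-06). Exchanged, these were −1.62, −1.49 and 0.56. In the mPFC 7 of the 30 rose, 3 fell and 20 did not pass, with a median of 0.20: Plcg2 rose by 1.07 ± 0.08, Olfml3 by 0.82 ± 0.08 and Sall1 by 0.63 ± 0.05 (1.00 and 0.18 for the latter pair with exchanged labels). Under the exchange Plcg2 was at −0.09 in the mPFC and 0.62 in the hippocampus, and both regions had 6 higher and 7 lower. The purine-family receptor genes Gpr34 and P2ry13, named after their values were seen because P2ry12 belongs to the same family, were higher in both regions. Gpr34 averaged 5.4 ± 1.5 and 30.6 ± 7.7 in control and knockout mPFC (2.31 ± 0.31) and 11.3 ± 2.8 and 21.2 ± 6.1 in the hippocampus (0.84 ± 0.31), and P2ry13 3.7 ± 1.5 and 20.3 ± 8.3 (2.15 ± 0.44) and 3.7 ± 1.6 and 11.9 ± 3.3 (1.49 ± 0.44). Under exchanged labels they were also called higher, at 1.36 and 1.79 for Gpr34 and 2.15 and 1.48 for P2ry13. P2ry13 reached the filter of at least 10 in 3 libraries through knockout libraries only.

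Genes linked to reactive microglia moved in both directions in the hippocampus, with 3 of 14 tested rising, 7 falling and 4 not passing. Gpnmb, a glycoprotein gene of lipid-laden phagocytes, went from 1831.4 ± 38.0 to 453.0 ± 24.9 (−2.01 ± 0.06, limma adjusted p = 8.6e-12; −1.11 ± 0.06 with exchanged labels). Cd9, which OPCs also express, rose from 6019.8 ± 86.5 to 11095.2 ± 238.4 (0.88 ± 0.05, exchanged 0.31). In the mPFC 2 rose (Axl and Csf1), 2 fell (Clec7a and Lilrb4a) and 10 did not pass. Over all genes 47.4% were called there and 42.6% in the hippocampus. With exchanged labels 6 of these reactive genes rose, 7 fell and 1 did not pass in the mPFC, and 3, 9 and 2 in the hippocampus. Of 6 tested genes of border macrophages, the macrophages of meninges and vessels, 3 fell in the hippocampus and 0 rose: Stab1 from 127.9 ± 9.3 to 26.9 ± 1.7 (−2.21 ± 0.20), Ms4a7 from 34.8 ± 4.8 to 7.8 ± 0.4 (−2.01 ± 0.21) and Dab2 from 149.7 ± 14.4 to 91.6 ± 6.1 (−0.70 ± 0.12). In the mPFC 1 rose, 2 fell and 3 did not pass. With exchanged labels the hippocampus had 2 higher, Mrc1 (1.52) and F13a1 (2.50), and 3 lower, Stab1 (−1.71), Ms4a7 (−1.39) and Dab2 (−0.75), and the mPFC 0 higher and 4 lower. Their summed level over 10 genes was 382 to 418 in the control and 179 to 207 in the knockout hippocampus, and 275 to 327 and 199 to 241 in the mPFC; the part of such cells in the members' fall was not tested. Genes of monocytes and neutrophils summed to 3 to 18 in every acute library, and 0 of 10 reached the filter, and lymphocyte genes to 14 to 29.

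Complement genes downstream of C1q moved in both directions. In the hippocampus, of 8 tested, 2 rose (C4b from 8.3 ± 1.4 to 35.2 ± 8.7, and C3 from 7.3 ± 1.4 to 14.5 ± 4.2), 2 fell (the anaphylatoxin receptor genes C3ar1, −1.39 ± 0.13, and C5ar1, −1.88 ± 0.33) and 4 did not pass. In the mPFC, C3 alone changed, from 85.7 ± 3.5 to 15.3 ± 2.8 (−2.43 ± 0.24, limma adjusted p = 1.59e-06). The direction of C3 and C4b depended on the control labels: exchanged, C3 was at 0.97 in the mPFC and −2.52 in the hippocampus, and C4b at 2.04 and −0.54. C3ar1 and C5ar1 remained lower in the hippocampus at −0.70 and −1.24. Of 7 ligands of member receptors, 3 rose, 1 fell and 3 did not pass in the mPFC (47.4% of all genes were called), and 3 rose, 2 fell and 2 did not pass in the hippocampus (42.6%). Exchanged, 2 rose and 0 fell in the mPFC, and 3 rose and 2 fell in the hippocampus. Csf1, the growth factor bound by Csf1r, went from 377.2 ± 20.9 to 564.5 ± 22.6 in the mPFC (0.58 ± 0.07) and from 355.7 ± 15.3 to 636.5 ± 29.6 in the hippocampus (0.84 ± 0.07). Cx3cl1, the ligand of Cx3cr1, went from 893.6 ± 27.2 to 1654.1 ± 33.5 (0.89 ± 0.06) and from 1156.1 ± 94.3 to 1499.9 ± 76.3 (0.38 ± 0.06). Both stayed higher under exchanged labels, at 0.67 and 0.75 for Csf1 and 0.52 and 0.75 for Cx3cl1. The transforming growth factor gene Tgfb1 fell in the hippocampus from 34.7 ± 7.6 to 11.6 ± 4.3 (−1.54 ± 0.29, exchanged −1.06).

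Of 7 inflammatory genes tested, 2 rose and 1 fell in the mPFC (47.4% of all genes were called) and 3 rose and 0 fell in the hippocampus (42.6%). Cd83, an activation marker of myeloid and other cells, went from 106.9 ± 8.9 to 200.6 ± 12.2 in the mPFC (0.90 ± 0.09) and from 78.8 ± 3.0 to 303.0 ± 7.8 in the hippocampus (1.93 ± 0.09, limma adjusted p = 7.59e-10). The cytokine gene Il1a rose in the hippocampus from 9.4 ± 3.9 to 40.7 ± 7.8 (2.07 ± 0.39). Exchanged, Cd83 was at 1.34 and 1.497 and Il1a at 1.81 in the hippocampus, and the list had 2 higher and 1 lower in the mPFC and 4 higher and 1 lower in the hippocampus. MHC class II genes summed to 200 to 253 in every acute library; 1 of 5, H2-Aa, rose in the mPFC (2.35), and 0 passed in the hippocampus. Exchanged, 0 passed in the mPFC, and H2-Aa rose in the hippocampus (3.06). Beside the members, the 12 OPC markers summed to 250919 to 258049 in the control and 222249 to 225322 in the knockout hippocampus.

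In cultured mouse OPCs, part of the members fell with GABA. Of the 31 members, 30 had a row in each mouse culture table; Siglech had none, Tmem119 stayed below the filter in the mPFC cultures, and P2ry12, Tmem119, Selplg and Ccl4 did so in the hippocampal cultures. In mPFC cultures 5 of 29 tested fell, 1 rose and 23 did not pass after GABA, against 3.36% lower and 3.18% higher (6.55% in all) of 14894 genes, with a median of −0.03. In hippocampal cultures 11 of 26 fell, 0 rose and 15 did not pass, against 12.8% lower and 11.9% higher (24.7% in all) of 14933 genes, with a median of −0.37. Their summed level went from between 8905 and 9388 to between 7335 and 7445 in the mPFC cultures, and from between 5955 and 6192 to between 3686 and 3906 in the hippocampal cultures.

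Spp1, Lyz2, Mpeg1, Ctss and Lgals3 fell with GABA in both mouse cultures. Spp1 read 271.4, 283.1 and 273.8 untreated and 138.6, 136.5 and 128.0 with GABA in mPFC cultures (−1.03 ± 0.09, limma adjusted p = 4.13e-07). In hippocampal cultures it read 411.4, 415.9 and 416.4 against 195.9, 169.8 and 189.7 (−1.16 ± 0.08, adjusted p = 1.91e-11). Every treated library was below every untreated one in both regions. Lyz2 read 3250.0, 3427.6 and 3728.1 against 2778.6, 2683.1 and 2643.1 in mPFC cultures (−0.36 ± 0.05, adjusted p = 0.000102). In hippocampal cultures its values were 2413.0, 2582.7 and 2536.3 against 1331.6, 1360.5 and 1377.5 (−0.89 ± 0.04, adjusted p = 7.48e-15). No treated library reached an untreated one. Mpeg1 read 1554.2, 1464.9 and 1521.5 against 1131.7, 1062.9 and 1073.9 (−0.47 ± 0.05, adjusted p = 4.42e-06) and, in the hippocampal cultures, 850.9, 838.7 and 897.5 against 513.3, 412.2 and 425.0 (−0.94 ± 0.07, adjusted p = 8.16e-11). Ctss and Lgals3 fell by 0.39 and 0.41 in mPFC cultures and by 0.75 and 0.48 in hippocampal cultures.

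C1q subunits fell with GABA in hippocampal cultures for C1qb, which read 141.7, 164.4 and 173.9 untreated and 98.4, 102.8 and 98.7 treated (−0.67 ± 0.11, limma adjusted p = 5.58e-05), and for C1qc, which read 137.8, 166.4 and 152.1 against 115.8, 97.2 and 89.1 (−0.60 ± 0.12, adjusted p = 0.000449). C1qa, at 132.0, 154.6 and 130.2 against 114.8, 129.6 and 116.2, did not pass (−0.21 ± 0.11, adjusted p = 0.167). All treated libraries were well below the untreated ones for C1qb and C1qc. For C1qa the highest treated library, at 129.6, nearly reached the lowest untreated one, at 130.2. Fcgr3 read 46.6, 38.2 and 49.7 against 22.2, 26.8 and 18.4 there (−0.97 ± 0.20, adjusted p = 0.00103). Itgam (−1.23 ± 0.27), Cd14 (−0.67 ± 0.16) and Fcer1g (−0.47 ± 0.16, adjusted p = 0.0347, lost without a filter on low values at 0.0771 and without untreated library 2 or 3 or GABA library 1 or 2) fell too. Tyrobp and its receptor Trem2 did not pass at 81.1 ± 5.2 against 66.4 ± 13.1 and 65.0 ± 5.8 against 48.2 ± 9.4. Among the members that did not pass, Csf1r was at −0.06 ± 0.12, Cx3cr1 at 0.08 ± 0.14, Ptprc at 0.03 ± 0.14 and Irf8 at −0.03 ± 0.15. In mPFC cultures Cx3cr1 was the 1 member that rose, from 192.2, 193.0 and 191.4 to 236.0, 267.2 and 229.6 (0.34 ± 0.09, adjusted p = 0.0201), and this call was lost without any 1 of the untreated libraries or without GABA library 2, at adjusted p-values of 0.0785 to 0.0846.

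Among other microglial genes, 3 of 36 fell and 0 rose in mPFC cultures (6.55% of all genes were called), and 7 of 32 fell and 1 rose in hippocampal cultures (24.7%). Tlr7, an endosomal RNA sensor gene, fell in both (−0.63 ± 0.12 and −0.93 ± 0.17). Of 15 tested genes linked to reactive microglia, 5 fell and 1 rose in mPFC cultures, and 9 fell and 1 rose in hippocampal cultures. Among them Gpnmb fell from 1525.9 ± 7.5 to 854.9 ± 70.2 in mPFC cultures (−0.84 ± 0.06) and from 951.6 ± 62.8 to 680.8 ± 8.5 in hippocampal cultures (−0.48 ± 0.05). Of border macrophage genes, 1 of 5 tested fell in mPFC cultures and 1 of 4 in hippocampal cultures, and 0 rose. Stab1, of this list, fell from 561.5 ± 17.4 to 431.6 ± 9.6 and from 360.5 ± 25.1 to 184.6 ± 10.4. Beside these, the summed level of 12 OPC markers was 232347 to 234293 untreated and 225007 to 230177 with GABA in mPFC cultures, and 208338 to 212478 and 208911 to 210089 in hippocampal cultures. Mural and fibroblast markers went from 647 to 765 up to 968 to 1050 in hippocampal cultures, and their part in the result was not tested.

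In rat cortex cultures GABA was followed by higher levels of the members. Of 29 members with a row, 25 were tested: 20 rose, 0 fell and 5 did not pass, against 11.9% higher and 11.8% lower (23.7% in all) of 12481 genes, with a median of 0.89 against −0.01. Siglech and Fcgr3 had no row, and Ly86, Tmem119, Ccl3 and Ccl4 stayed below the filter. Summed, the members went from 1785 to 1849 untreated up to 2894 to 3023 with GABA. Lyz2 made up 1.5% of the untreated sum in rat, unlike the mouse cultures, where its untreated share was 36.5% to 42.2%.

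The C1q genes had the smallest p-values in rat. C1qb read 74.0, 58.9 and 79.3 untreated and 199.7, 208.0 and 197.7 with GABA (1.51 ± 0.12, limma adjusted p = 3.87e-12). C1qc read 32.0, 41.9 and 42.2 against 166.9, 127.0 and 137.1 (1.87 ± 0.15, adjusted p = 6.12e-12). C1qa read 69.0, 58.9 and 68.3 against 165.9, 187.0 and 163.9 (1.39 ± 0.12, adjusted p = 3.96e-11). The groups were separate in all 3 subunits. Fcer1g read 99.0, 84.8 and 94.4 against 149.0, 159.0 and 155.0 (0.73 ± 0.11, adjusted p = 4.39e-06). Tyrobp read 56.0, 43.9 and 66.3 against 106.3, 70.0 and 102.3 (0.73 ± 0.16, adjusted p = 0.000936). Trem2 read 44.0, 28.9 and 28.1 against 71.5, 58.0 and 56.6 (0.88 ± 0.19, adjusted p = 0.000515). In all 3 genes every treated library was above every untreated one.

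The receptor genes Csf1r and Cx3cr1 rose in rat as well. Csf1r read 125.1, 116.7 and 106.5 untreated and 222.5, 219.0 and 212.6 with GABA (0.91 ± 0.10, limma adjusted p = 5.52e-09). Cx3cr1 read 15, 28.9 and 28.1 against 67.6, 73.0 and 69.5 (1.56 ± 0.20, adjusted p = 4.5e-07). Neither gene overlapped between the groups. Lyz2 read 27, 25.9 and 27.1 against 75.5, 85.0 and 65.6 (1.46 ± 0.17, adjusted p = 6.18e-08), and Laptm5 read 76.0, 75.8 and 76.3 against 139.1, 142.0 and 145.0 (0.89 ± 0.11, adjusted p = 2.55e-07). Ctss, Cd68, Aif1, Itgam, Irf8, Cd53, Mpeg1, Ptprc, Lgals3 and Cd14 rose by between 0.36 (Mpeg1) and 1.80 (Itgam); Lgals3 lost its call without untreated library 1 (0.29, adjusted p = 0.0596). Spp1 was at 306.6 ± 22.6 and 286.1 ± 10.5 (−0.10 ± 0.07, adjusted p = 0.354), and P2ry12, Selplg, Spi1 and Unc93b1 did not pass, at 0.43 to 0.73.

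Of 28 tested other microglial genes in rat, 0 fell, 12 did not pass and 16 rose (23.7% of all genes were called), led by Pld4 (1.96 ± 0.20), Adgre1 (1.39 ± 0.17), Itgb2 (1.24 ± 0.20) and the phosphatase gene Inpp5d (1.18 ± 0.20). Downstream complement rose with C1q here, in 3 of 4 tested, among them C3 from 41.4 ± 6.5 to 108.9 ± 2.2 (1.39 ± 0.15) and C3ar1 from 5.7 ± 1.1 to 21.9 ± 5.2 (1.77 ± 0.33). C3ar1 reached the filter through treated libraries only. Other cell type markers moved beside the members: 10 oligodendrocyte genes summed to 174889 to 180333 untreated and 211084 to 212459 treated, 10 mural and fibroblast genes to 1582 to 1663 and 2323 to 2373, and 12 OPC genes to 186113 to 188437 and 181748 to 183007. Border macrophage genes summed to 892 to 941 and 882 to 931. Their part in the rise of the members was not tested.

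Glutamate was tested on another set of rat cultures, in which few members could be measured. Of 28 with a row, 8 passed the filter, and 3 of these rose, 0 fell and 5 did not pass, against 14.1% higher and 14.2% lower (28.3% in all) of 12465 genes, with a median of 0.48. Unc93b1 read 32.3, 20.2 and 30.2 untreated and 40.6, 61.9 and 62.1 with glutamate (0.97 ± 0.20, limma adjusted p = 6.9e-05). Lgals3 read 37.4, 34.3 and 43.2 against 58.5, 60.0 and 61.1 (0.64 ± 0.17, adjusted p = 0.00251). Csf1r read 15.2, 9.1 and 17.1 against 30.7, 20.6 and 32.5 (0.99 ± 0.27, adjusted p = 0.00329). Each was higher in every treated library, and Csf1r rests on few reads. Mpeg1, the most abundant member there, was at 248.4 ± 14.0 and 239.5 ± 18.5 (−0.05 ± 0.08, adjusted p = 0.665), and Ctss (0.69), Spp1 (0.32), Laptm5 (0.19) and Cd68 (−0.32) did not pass. The C1q genes were below the filter, C1qa at 7.1 ± 2.0 and 13.1 ± 6.4, C1qb at 5.7 ± 0.6 and 11.2 ± 1.1, and C1qc at 3.4 ± 1.5 and 6.9 ± 1.7. Of the defining markers, Cx3cr1, Aif1 and Tmem119 averaged 1 to 3.9 in both groups, so most members were not measurable there at this depth. The members summed to 487 to 571 untreated and 614 to 619 treated. Of 10 tested genes linked to reactive microglia, 6 rose, 2 fell and 2 did not pass. Among them Gpnmb was well measured and rose from 323.4 ± 10.9 to 731.2 ± 9.3 (1.18 ± 0.06, limma adjusted p = 2.33e-30). Which cells its transcripts came from was not tested.

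**Figure D3:**
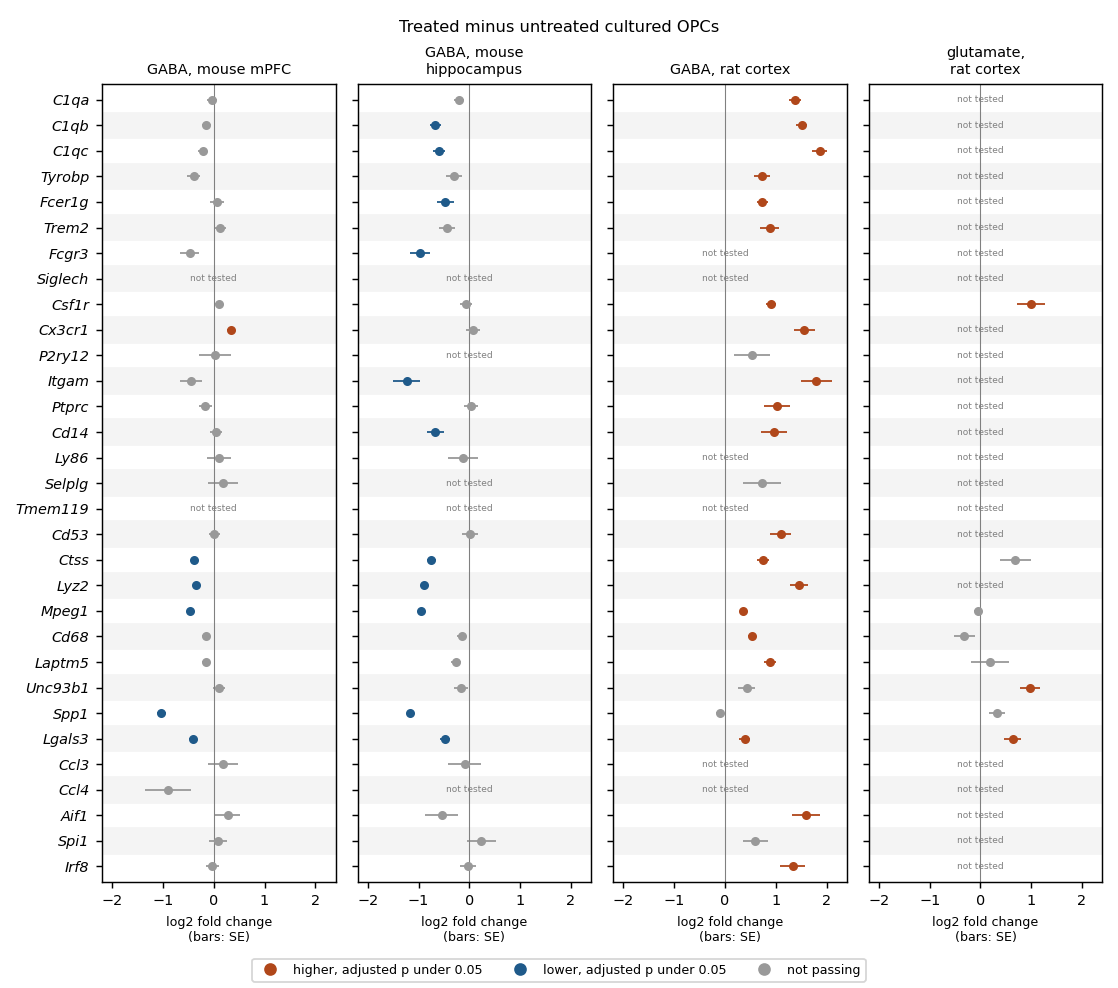
Log2 fold change, treated minus untreated, of each member in the 4 culture sets, with standard errors (3 libraries per group); colours mark calls at an adjusted p under 0.05, and members without a row or below the filter are marked as not tested. With GABA 5 members fell and 1 rose in mouse mPFC cultures, 11 fell in mouse hippocampal cultures, and 20 rose in rat.

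**Figure D4:**
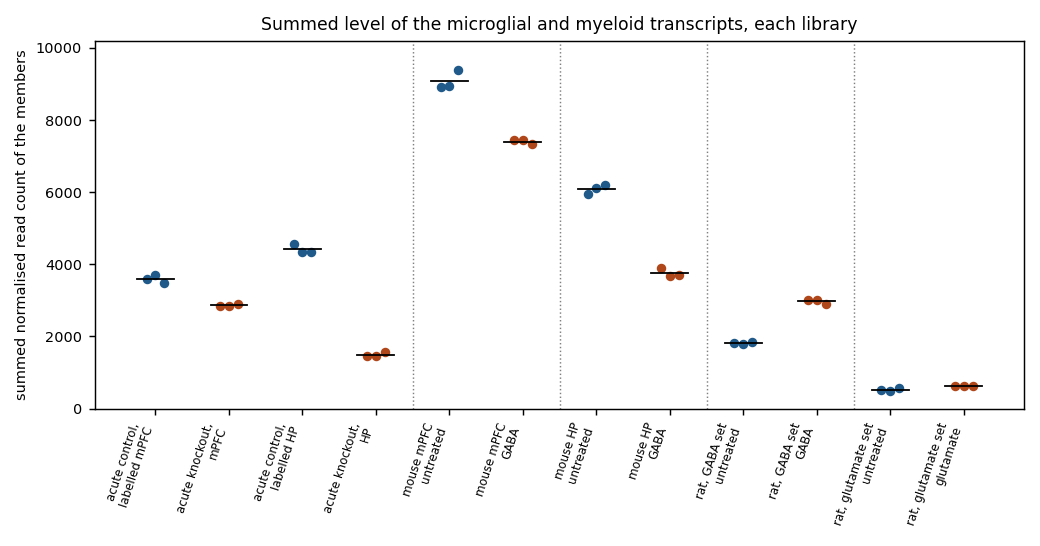
Summed normalised read count of the members in each of the 36 libraries (points) with group means (lines); dotted lines part tables that were scaled separately, so levels can be compared only within a table. The knockout hippocampus, at 1453 to 1572, is lowest among the acute groups, and GABA goes with lower sums in both mouse cultures and higher sums in rat.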

How the data were processed

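RNA-seq values of 36 poly-A libraries in 5 tables were used. The deposited signal values are gene read counts that the authors divided by 1 factor per library: every value was a whole multiple of its library's smallest step (tolerance 1e-06), with steps of 0.9052 to 1.117 and depths of 14826255 to 22128687 reads. The submitters' processing notes name HISAT, Bowtie2, DESeq2 and GRCm38.p6; versions and the rat build are not given in the sources used here. Such scaling keeps ratios within a table, and tables were scaled separately, so tests were run within a table only. Counting was not stated to use strand.

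Genes with a value of at least 10 in 3 libraries were tested with limma 3.58.1 (trend) in R 4.3.3 on log2(value + 1), in which fold changes of low genes are understated, with Benjamini-Hochberg adjustment over the table and a threshold of 0.05. The script was tested on simulated data. An exact permutation test of 3 against 3 libraries cannot go below 0.1 and was not used. Replicate numbers were not used as pairs in the main test. Values are given per library for up to 8 passing members with the smallest p in a comparison and their family partners, and for up to 4 genes of each other list. The members and lists were chosen with earlier results of these data known. Alternatives were pseudocounts of 0.1 and 10, no filter, other scalings, the compared groups only, a replicate block, each library left out and exchanged control region labels; the latter was extended to the other lists after the data were seen. RefSeq promoter windows were searched on both strands. Some genes of the other lists are not reported here.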

Additional observations from a re-analysis of the deposited data

Results flagged for a closer look

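The knockout effect differed between the regions for 17 members by the limma interaction test, as the hippocampal minus the mPFC log2 fold change: Lyz2 −1.593, Mpeg1 −1.72, Ctss −1.478, Cd68 −1.526, Lgals3 −2.585, Tyrobp −2.358, Laptm5 −1.922, Fcgr3 −2.183, C1qc −1.1, C1qa −1.114, Trem2 −1.862, Csf1r −1.372, Cd53 −0.986, C1qb −0.972, Ptprc −1.064, Spi1 −1.746 and Fcer1g −0.891. With exchanged control region labels, Lyz2, Tyrobp, Ctss and Mpeg1 of these passed, and region and control group cannot be told apart. The calls of Fcer1g (limma adjusted p = 0.0469), Spi1 (0.0352) and Ptprc (0.0253) were fragile. Each was lost without any of several single libraries, at adjusted p-values of up to 0.124, 0.0981 and 0.0723. That of Fcer1g was also lost with no filter (0.0738) and with a replicate block (0.0586).

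GABA changed members in opposite directions in mouse and rat cultures. The difference was not tested, because the tables were scaled separately and the species differ. In mouse mPFC cultures every treated library was lower for 4 members that were higher in rat: Mpeg1 −0.474 (rat 0.361), Lyz2 −0.358 (rat 1.456), Ctss −0.394 (rat 0.749) and Lgals3 −0.408 (rat 0.388). In mouse hippocampal cultures this held for 9 members: Lyz2 −0.887, Mpeg1 −0.943, Ctss −0.746, C1qb −0.668 (rat 1.51), C1qc −0.595 (rat 1.867), Lgals3 −0.479, Itgam −1.232 (rat 1.801), Cd14 −0.67 (rat 0.963) and Fcer1g −0.47 (rat 0.731). These were 4 of 25 and 9 of 23 members tested in both tables; by the same criteria 0.837% of 11113 and 1.97% of 11127 genes tested in both were lower in mouse and higher in rat.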

How the results depend on the processing

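Exchanging the control region labels changed most. Members called went from 9 to 17 in the mPFC knockout comparison and from 17 to 5 for the difference between regions. Of 93 member effects 26 turned sign, 12 of them with a call under either of the labellings: in the mPFC, Trem2 −0.961, Fcgr3 −0.225, Cd68 −0.545 and Lgals3 −0.768; in the hippocampus, Fcgr3 0.015; and for the difference, C1qa 0.334, Csf1r 0.101, Trem2 0.348, Fcgr3 0.24, Ptprc 0.128, Cd53 0.302 and Spi1 0.077. Of 3226 member effects under the other alternatives, 3118 kept their side of the threshold, 57 lost the call and 51 gained it; 70 turned sign, of which 0 were called before or after. Leaving out 1 library gave 9 to 10 called members (mPFC knockout), 19 to 22 (hippocampal knockout), 14 to 18 (difference), 11 to 13 (control regions), 11 to 15 (knockout regions), 5 to 7 (GABA mPFC), 10 to 11 (GABA hippocampus), 20 to 21 (GABA rat) and 3 to 4 (glutamate). A count test on reads recovered from the scaled values was planned and not run. In part of the libraries the step lay too close to 1 for the recovered reads to be accepted.

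Same-numbered libraries deviated together little (correlations of −0.05 to 0.12), which cannot exclude a pairing. The hippocampal knockout libraries, 4 to 6 in their titles, were numbered by their column names for this. Adding a replicate block raised the share of all genes called in the acute comparisons. It went from 47.4% to 50.5% (mPFC knockout), 42.6% to 46% (hippocampal knockout) and 15.1% to 20.2% (knockout regions). With the replicate block, 9, 23, 18, 12, 13, 7, 13, 21 and 3 members were called in the order above. Members with few reads, such as Siglech, Tmem119 and the C1q genes in the glutamate set, are limited by their low counts.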
